A study of Mus musculus with 8 samples.

Results

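Protein-coding genes that span at least 150 kb were followed in mouse liver 1 h after the farnesoid X receptor (FXR) was activated. The genes were chosen by 2 values of the expression table, a row length of at least 150 kb and a mean of at least 0.5 RPKM (a read density scaled to row length and library depth) over the 4 libraries of global run-on sequencing (GRO-seq), which measures nascent RNA in isolated nuclei. They numbered 351 of the 1186 protein-coding rows of that length and of the 20870 protein-coding rows in a table of 25124 rows. Because the GRO-seq mean entered the choice, their GRO-seq levels are given as a description. They were set against 4555 protein-coding rows of 5 to 30 kb that passed the same GRO-seq filter, called short rows here.

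For RNA-seq, C57BL/6 mice labelled WT were fasted overnight and given vehicle (DMSO in the labels, corn oil in the methods) or the synthetic FXR agonist GW4064 at 30 mg/kg for 1 h, with liver RNA of 2 mice pooled in each of 2 libraries per treatment. For GRO-seq there was 1 library each for WT and FXR KO livers with vehicle or GW4064, after the same fast, dose and time. The paper's figure legend gives n=2 per group for GRO-seq, and how many livers each library holds is not known here. The methods describe these animals as male floxed-Fxr mice and as male liver-specific knockouts, in which Cre is driven by the albumin promoter of hepatocytes, so the deletion is directed at hepatocytes. Animal ages were not used here. The rebuilt depth was 13924437 to 14047312 reads for each RNA-seq library, 14173698 and 10593325 reads for WT vehicle and WT GW4064, and 5141671 and 5069385 reads for FXR KO vehicle and FXR KO GW4064. Summed over 7 hepatocyte markers, RNA-seq levels were 383 to 435 RPKM, against 12.9 to 14.0 RPKM over 6 Kupffer cell markers, 18.8 to 19.9 RPKM over 6 sinusoidal endothelial markers, 7.79 to 9.17 RPKM over 6 stellate cell markers, 4.31 to 8.11 RPKM over 6 cholangiocyte markers and 31.7 to 37.5 RPKM over 5 markers of other blood cells, and no marker was listed at 0. The row of Nr1h4, which encodes FXR, had GRO-seq levels of 15.1 and 4.23 RPKM in WT with vehicle and GW4064 and of 16.7 and 20.6 RPKM in FXR KO, and a density over the whole row does not check a deletion of part of the gene. Nr0b2, a known FXR target, went from 3.645 to 36.619 RPKM in the WT pair of GRO-seq libraries and from 0.118 to 1.192 RPKM in the FXR KO pair.

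FXR is a nuclear receptor for bile acids that binds DNA with RXR, typically at inverted repeats of a 6-base element with 1 base between them. Very long genes consist almost wholly of introns, and a polymerase that starts at the promoter needs a time comparable with the treatment to reach the far end. The values are read densities over the whole row, introns included, so a change at only 1 end of a gene is averaged over all of its length. In bulk liver, fewer cells of a type and less RNA per cell cannot be told apart.

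Promoter windows are shown for 4 of the genes, chosen for the responses described below. They belong to the pair with the largest upward ratios in WT GRO-seq and to 2 genes that were lower in both assays. Each runs from 250 bases before to 50 bases after the annotated start (RefSeq, GRCm38.p6, the same assembly as mm10). Capitals mark the 6-base element AGGTCA, or its reverse complement TGACCT, wherever it occurred.
Nos1ap, minus strand, chr1:170589800-170590099: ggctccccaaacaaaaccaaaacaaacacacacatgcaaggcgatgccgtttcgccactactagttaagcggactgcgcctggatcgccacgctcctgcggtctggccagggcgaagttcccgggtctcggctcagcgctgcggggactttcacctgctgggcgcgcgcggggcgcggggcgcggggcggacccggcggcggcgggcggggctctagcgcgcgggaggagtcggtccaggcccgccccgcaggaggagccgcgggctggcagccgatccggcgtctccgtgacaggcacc
Abtb2, plus strand, chr2:103566060-103566359: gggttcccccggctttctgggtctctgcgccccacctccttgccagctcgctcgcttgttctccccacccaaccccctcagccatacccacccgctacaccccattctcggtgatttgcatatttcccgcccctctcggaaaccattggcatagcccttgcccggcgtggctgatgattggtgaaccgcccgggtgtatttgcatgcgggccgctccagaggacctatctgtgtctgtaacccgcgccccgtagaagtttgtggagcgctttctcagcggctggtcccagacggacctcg
Stard13, minus strand, chr5:151190144-151190443: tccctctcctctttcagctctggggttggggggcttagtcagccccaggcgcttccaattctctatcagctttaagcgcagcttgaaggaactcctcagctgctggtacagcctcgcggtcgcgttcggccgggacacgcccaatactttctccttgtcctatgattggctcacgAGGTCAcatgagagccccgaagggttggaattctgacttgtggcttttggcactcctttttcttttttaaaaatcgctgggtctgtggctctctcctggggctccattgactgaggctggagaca
Arid5b, minus strand, chr10:68278677-68278976: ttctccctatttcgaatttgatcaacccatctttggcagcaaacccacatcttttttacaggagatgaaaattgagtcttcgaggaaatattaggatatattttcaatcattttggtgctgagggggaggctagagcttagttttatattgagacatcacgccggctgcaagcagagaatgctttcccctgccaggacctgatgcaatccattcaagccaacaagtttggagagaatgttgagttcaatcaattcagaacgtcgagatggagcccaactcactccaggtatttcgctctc
The element occurred in the Stard13 window, 75 bases before the start, and in none of the other 3. Windows were searched for 19 of the 29 long rows past 1.5-fold in WT GRO-seq, and only the Stard13 window held it. The element was in 12.5% of the 255 windows matched to long rows. Of all 32817 promoter windows in the table, 16.3% held it, and the whole inverted repeat AGGTCANTGACCT was in 3. The Nos1ap window has 39 CG dinucleotides, Abtb2 has 21, Stard13 has 12 and Arid5b has 7. A match is a description of these letters and not of receptor binding. A comparison of promoter composition between long and short rows was void, because windows were matched for only 72.6% of the long rows.

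The long rows had a median length of 221 kb, and 81 of them reached 300 kb or more. Among rows matched to an annotated transcript (89.2% of long and 89.2% of short rows) the median long row had 17 exons, exons made up 2.19% of its length and its longest intron was 80.7 kb. The median short row had 8 exons, an exon share of 18.2% and a longest intron of 4.41 kb. Another row of the table lay wholly inside 74 long rows (21.1%) and 260 short rows (5.71%). Such rows share reads, so their values cannot be separated. Chromosome 6 carried 33 of the long rows.

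The 5 longest members were Naaladl2 (986 kb), Immp2l (931 kb), Wwox (913 kb), Dpyd (871 kb) and Sugct (837 kb). Immp2l, a subunit of the mitochondrial inner membrane peptidase, had GRO-seq levels of 4.13 and 4.02 RPKM in WT vehicle and GW4064 and of 3.92 and 3.69 RPKM in FXR KO. Wwox, an oxidoreductase gene at a common fragile site, had 0.906 and 1.16 RPKM in WT and 1.20 and 1.02 RPKM in FXR KO. Dpyd, which encodes the first enzyme of pyrimidine breakdown, had 7.39 and 8.63 RPKM in WT and 7.72 and 6.84 RPKM in FXR KO. None of the 5 passed the RNA-seq test (adjusted p from 0.579 to 0.990, limma). The highest GRO-seq mean was that of Adk, adenosine kinase, at 20.7 RPKM, and its 4 GRO-seq values were 21.7 and 22.5 RPKM in WT and 19.1 and 19.6 RPKM in FXR KO.

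Read densities over the whole row were lower in long rows. The median RNA-seq mean was 1.15 RPKM for long rows and 2.58 RPKM for short rows, and the median GRO-seq mean was 1.17 and 1.54 RPKM. The ratio of RNA-seq to GRO-seq density in vehicle WT liver had a median of 0.922 over long rows and 1.51 over short rows. RPKM divides by the whole row, of which exons made up 2.19% in the median long row and 18.2% in the median short row. The RNA-seq densities and this ratio therefore do not compare amounts of RNA between the classes. At these lower densities the long rows still held more reads, with a median of 4324 against 493 in the first vehicle RNA-seq library and 4622 against 323 in the WT vehicle GRO-seq library. Long rows took 14.7% and 14.9% of all reads in the vehicle RNA-seq libraries and 14.1% and 13.7% in the GW4064 libraries. They took 17.8% in WT vehicle GRO-seq, 16.8% in WT GW4064, 16.9% in FXR KO vehicle and 16.6% in FXR KO GW4064.

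In RNA-seq, the median change of the long rows lay below 0 and that of the short rows close to 0. On the log2(RPKM + 0.1) scale the median change after GW4064 was -0.09 over the 345 long rows that passed the RNA-seq filter (a mean of at least 0.5 RPKM), with quartiles of -0.20 and 0.00. It was 0.01 over 4528 short rows, with quartiles of -0.09 and 0.11, and -0.00285 over all 11408 rows tested. Of the long rows, 253 (73.3%) had a change below 0, against 47.0% of short rows. Both GW4064 values lay under both vehicle values in 173 long rows (50.1%) and over both in 53 (15.4%). Among all rows tested these shares were 28.1% and 26.0%, and among short rows 24.8% and 29.2%. Between the replicate libraries, the median difference over long rows was 0.02 for vehicle and -0.05 for GW4064, and over short rows it was 0.02 for both. The second GW4064 library lay lower than the first in long rows, and against the vehicle mean the first alone gave medians from -0.04 to -0.10 in the 3 length bins from 150 kb upward and the second alone -0.10 to -0.13. Cholangiocyte markers summed to 4.31 RPKM in the first GW4064 library and 8.11 RPKM in the second (5.32 and 6.41 RPKM in vehicle), hepatocyte markers to 383 and 434 RPKM, and markers of other blood cells to 33.2 and 37.5 RPKM. Their part in the result was not tested.

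The RNA-seq change differed between bins of row length. The median was 0.04 for rows under 5 kb, 0.01 for 5 to 30 kb, -0.03 for 30 to 75 kb and -0.08 for 75 to 150 kb. It was -0.09 from 150 to 200 kb, -0.12 from 200 to 300 kb and -0.08 at 300 kb or more. In WT GRO-seq the median ratio was 0.02, -0.08, -0.15 and -0.20 over the 4 bins under 150 kb, then -0.19, -0.15 and -0.07. By the median, the longest rows were not the lowest in either assay. At 300 kb or more, however, 81.0% of rows had an RNA-seq change below 0, the highest share of the 7 bins. The median difference between the GW4064 replicates in that bin was -0.08, as large as its treatment median. In FXR KO GRO-seq the 7 bin medians stayed between -0.02 and -0.05. The ratio of FXR KO to WT in vehicle-treated livers had bin medians of 0.06, -0.04, -0.13, -0.19, -0.16, -0.10 and -0.07. This ratio and the WT treatment ratio share the WT vehicle library, the 1 of the 4 GRO-seq libraries in which long rows held the highest share of reads. With 1 library per group, a property of that library and an effect of treatment in WT liver cannot be told apart.

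**Figure D1:**
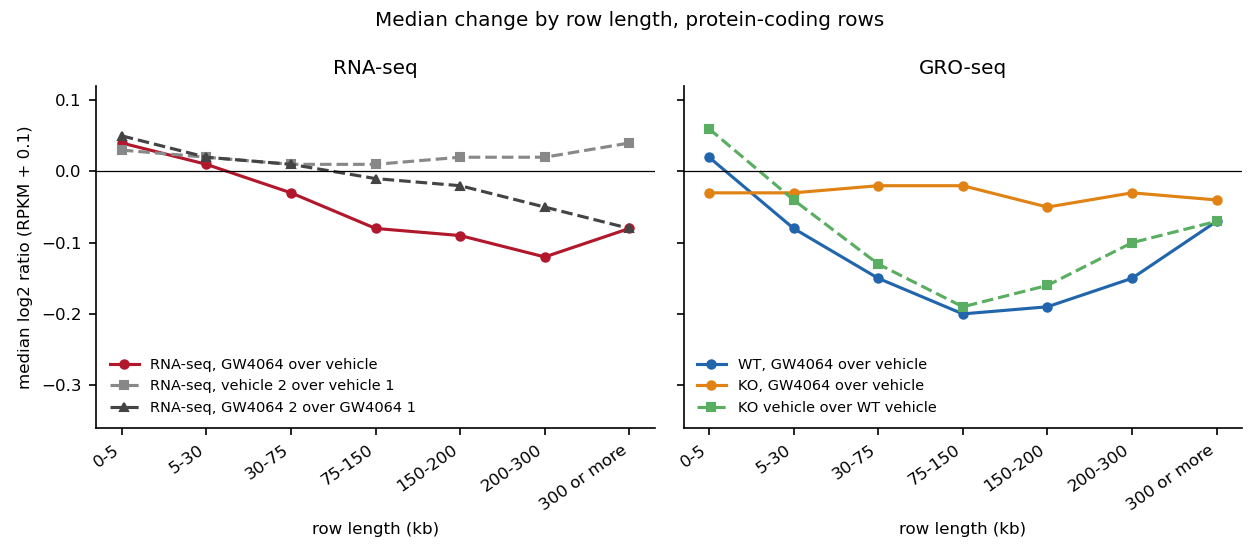
Median log2 ratio of RPKM + 0.1 (vertical axis) in 7 bins of row length in kb (horizontal axis) for protein-coding rows with a GRO-seq mean of at least 0.5 RPKM, with treatment ratios and replicate differences in RNA-seq on the left and GRO-seq ratios on the right. The RNA-seq treatment median falls to -0.12 at 200 to 300 kb, the WT GRO-seq median is lowest at 75 to 150 kb (-0.20), and the FXR KO treatment median stays between -0.02 and -0.05.

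By single gene, 11 of the 345 long rows passed the RNA-seq test, 4 higher and 7 lower. That is 1.16% and 2.03%, where 2.13% of all rows tested rose and 1.15% fell (limma, adjusted p under 0.05), and 2.16% of short rows rose and 0.685% fell. The share of long rows called in either direction was 3.19%, near the 3.28% of all rows. With a filter at a mean of 1 RPKM it was 7.58%, against 4.60% of all rows and 3.73% of short rows, and with robust=TRUE 5.51%, against 4.37% and 3.80%. An unadjusted p under 0.05 was found for 98 long rows (28.4%), against 21.2% of all rows and 20.2% of short rows. No long row kept its call when any 1 of the 4 libraries was left out. The direction of the 11 could not change then, because both GW4064 values lay on one side of both vehicle values. P-values measure the spread between 2 pooled libraries per group.

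The 4 long rows that rose act in different processes. Nos1ap encodes an adaptor of neuronal nitric oxide synthase and lies on chromosome 1 of mm10 from 170315467 to 170589849. Its RNA-seq values were 0.797 and 0.662 RPKM in vehicle and 2.02 and 1.85 RPKM in GW4064. Both treated values lay over both vehicle values, and the fitted log2 change was 1.30 ± 0.11 (SE), with a limma adjusted p of 0.0266. Ldlrad4, a membrane protein that restrains TGF-β signalling (chromosome 18 from 67933173 to 68255549), had 0.850 and 0.782 RPKM in vehicle and 1.61 and 1.87 RPKM in GW4064, or 1.00 on the log2 scale (SE 0.10, adjusted p = 0.0314). At 322 kb it was the only called row of 300 kb or more. Wwc2, a scaffold of the Hippo pathway (chromosome 8 from 47826082 to 47990544), had 0.693 and 0.737 RPKM in vehicle and 1.11 and 1.15 RPKM in GW4064 (log2 change 0.60, adjusted p = 0.0462). Wdfy3 encodes ALFY, an adaptor for the selective autophagy of protein aggregates, and lies on chromosome 5 from 101832953 to 102069921. It had 2.16 and 2.17 RPKM in vehicle and 3.15 and 3.20 RPKM in GW4064 (log2 change 0.53, SE 0.05, adjusted p = 0.0279).

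The 7 long rows that fell were led by Arid5b, the DNA-binding partner of the histone demethylase PHF2, on chromosome 10 from 68095593 to 68278726. Its RNA-seq values were 3.26 and 4.04 RPKM in vehicle and 1.58 and 1.59 RPKM in GW4064, a log2 change of -1.15 ± 0.12 (SE), with a limma adjusted p of 0.0345. Cobll1 on chromosome 2, a gene known from studies of fat distribution and insulin resistance, had 4.37 and 3.80 RPKM in vehicle and 1.74 and 1.92 RPKM in GW4064 (log2 change -1.12, adjusted p = 0.0272). Stard13, a GTPase-activating protein on chromosome 5 from 151037515 to 151190193, had 2.48 and 2.95 RPKM in vehicle and 1.37 and 1.41 RPKM in GW4064 (log2 change -0.91, adjusted p = 0.0378). In each of these 3 genes the treated libraries lay closer together than the vehicle libraries did. Garem1, an adaptor of growth factor signalling to ERK, had a log2 change of -0.69, and Mcc had one of -0.65. Sntb1, a syntrophin of the dystrophin complex, had -0.52, and Man1a, a Golgi mannosidase that trims N-glycans, had -0.52 as well. Their adjusted p-values ran from 0.0266 to 0.0429.

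**Figure D2:**
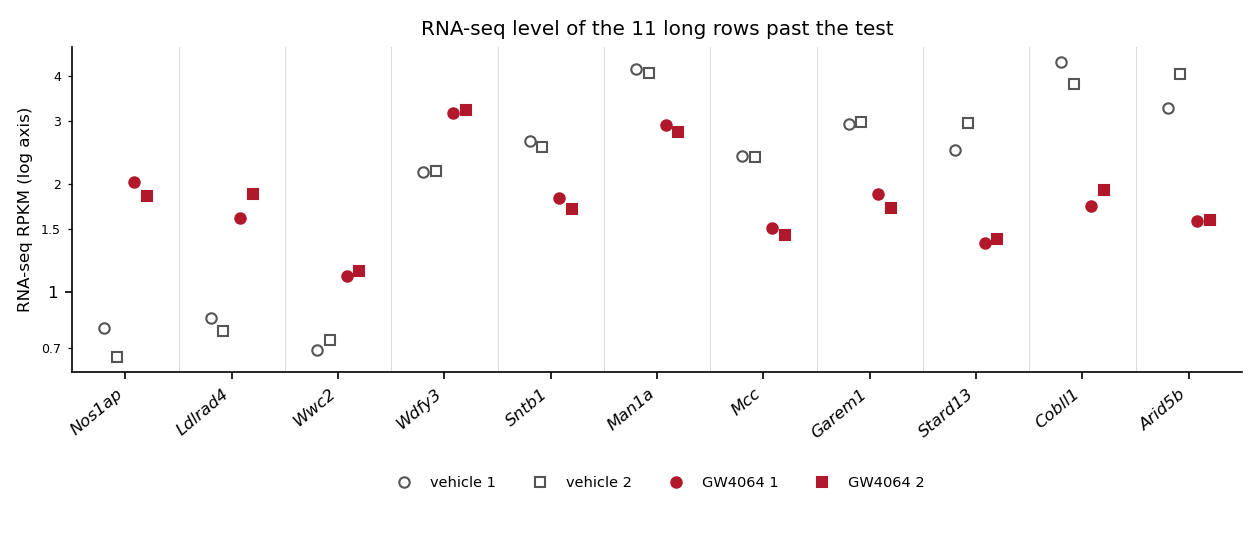
RNA-seq RPKM (log axis) in the 2 vehicle libraries (open symbols) and the 2 GW4064 libraries (filled symbols) for the 11 long rows past the test, ordered by log2 fold change from Nos1ap (1.30) to Arid5b (-1.15). In every gene both filled points lie on the same side of both open points.

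The test takes its spread from rows of like RPKM, whatever their length, although a long row holds more reads. With limma-voom on reads rebuilt from the RPKM values, 44 long rows passed, 13 higher and 31 lower, or 3.77% and 8.99% of the long rows. The shares of all rows called in this way were 4.58% higher and 4.22% lower, and those of short rows 4.88% and 2.94%. The 11 rows above were among the 44.

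In GRO-seq of WT livers, 14 long rows were at least 1.5-fold higher and 15 at least 1.5-fold lower after GW4064 (with 20 or more reads in a library of the pair), or 3.99% and 4.27%. The same limits were passed by 6.10% and 6.83% of all 10169 rows of the GRO-seq filter and by 5.80% and 6.34% of short rows. Ratios spread less over long rows, with an interquartile range of 0.34 against 0.40 for short rows. Among the 563 short rows with 1000 to 5000 reads in the WT vehicle library, 11.9% were past 1.5-fold upward and 7.99% downward. The 187 long rows in the same range of reads gave 3.74% and 3.21%. At equal reads a short row has a higher read density, so these sets differ in level as well as in length. The part of read number in the spread was not tested. The median ratio was -0.14 over long rows, -0.08 over short rows and -0.0937 over all rows. These ratios rest on 1 library per group and were not tested, and intervals given with them cover counting error only.

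Nos1ap had the largest upward ratio. Its GRO-seq level was 0.686 RPKM in WT vehicle and 3.11 RPKM in WT GW4064, a log2 ratio of 2.03 on the RPKM + 0.1 scale (95% Clopper-Pearson counting interval of the ratio without the added value, 2.12 to 2.24). In FXR KO livers it was 0.602 and 0.730 RPKM, a log2 ratio of 0.24. The WT GW4064 library stands apart from the other 3. Abtb2, a protein with ankyrin repeats and a BTB domain (chromosome 2 from 103566310 to 103718423), had 1.09 and 2.66 RPKM in WT and 1.19 and 0.847 RPKM in FXR KO. Its RNA-seq values were 2.23 and 1.59 RPKM in vehicle and 2.64 and 3.06 RPKM in GW4064, which did not overlap and did not pass the test (adjusted p = 0.218). Ldlrad4 had 1.00 and 2.21 RPKM in WT and 1.10 and 0.938 RPKM in FXR KO.

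Another 11 long rows were past 1.5-fold upward. Nedd4l, a ubiquitin ligase of ion channels, had 4.51 and 8.06 RPKM in WT and 3.40 and 3.62 RPKM in FXR KO. Phlpp1, a phosphatase of Akt, had 1.67 and 2.93 RPKM in WT and 1.67 and 1.85 RPKM in FXR KO. For both genes the WT GW4064 library was the highest of the 4. Also past the limit were Wwc2, Sh3pxd2a, Wdfy3, Cmip, Suclg2, Fchsd2, Mrtfb and Srgap2, with WT log2 ratios from 0.59 to 0.80. None of the 14 was past 1.5-fold in FXR KO, where their ratios ran from -0.55 (Fchsd2) to 0.24 (Nos1ap and Wwc2). Few rows of any kind were past it there, 0.855% of long rows upward and 1.14% downward, and 2.61% and 3.11% of all rows. An absence among 14 rows is therefore near the background.

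Among the long rows past 1.5-fold downward in WT were Arid5b and Stard13, which also fell in RNA-seq, and the adhesion gene Alcam. Arid5b had 7.64 and 2.61 RPKM in WT (log2 ratio -1.51, counting interval -1.59 to -1.51) and 5.05 and 4.68 RPKM in FXR KO. Alcam, a cell adhesion molecule of the immunoglobulin family, had 3.30 and 1.40 RPKM in WT and 3.19 and 2.88 RPKM in FXR KO. Its RNA-seq values were 2.20 and 2.92 RPKM in vehicle and 1.35 and 1.39 RPKM in GW4064 (log2 change -0.84, adjusted p = 0.0859, limma). Stard13 had 3.62 and 1.75 RPKM in WT and 3.40 and 2.45 RPKM in FXR KO.

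Cyp7b1, the oxysterol hydroxylase of the alternative pathway of bile acid synthesis, was low with GW4064 in both genotypes. Its GRO-seq values were 9.07 and 2.97 RPKM in WT (log2 ratio -1.58) and 9.56 and 4.19 RPKM in FXR KO (log2 ratio -1.17). It was the only long row past 1.5-fold in the same direction in both. Its RNA-seq values were 4.14 and 5.26 RPKM in vehicle and 2.55 and 6.15 RPKM in GW4064, so the treated libraries lay on either side of the vehicle libraries (log2 change -0.23, SE 0.46, adjusted p = 0.823, limma).

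Acaca encodes acetyl-CoA carboxylase 1, the committed step of fatty acid synthesis. It had 1.57 and 0.830 RPKM in WT (log2 ratio -0.84) and 1.88 and 2.94 RPKM in FXR KO (log2 ratio 0.62). RNA-seq gave 1.11 and 1.18 RPKM in vehicle and 0.865 and 0.747 RPKM in GW4064, a log2 change of -0.46 that did not pass the test (adjusted p = 0.114, limma). The growth hormone receptor gene, Ghr, had 11.2 and 7.30 RPKM in WT and 11.2 and 15.7 RPKM in FXR KO. Its RNA-seq values were 5.75 and 7.87 RPKM in vehicle and 5.10 and 4.78 RPKM in GW4064 (log2 change -0.44, adjusted p = 0.265). For both genes GW4064 was under vehicle in WT and over it in FXR KO. Also past 1.5-fold downward in WT were the long rows of Bach2, Pdlim5, Prr16, Cobll1, Lin7a, Neo1, Acss3 and Smoc1, with ratios from -0.89 to -0.61.

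**Figure D3:**
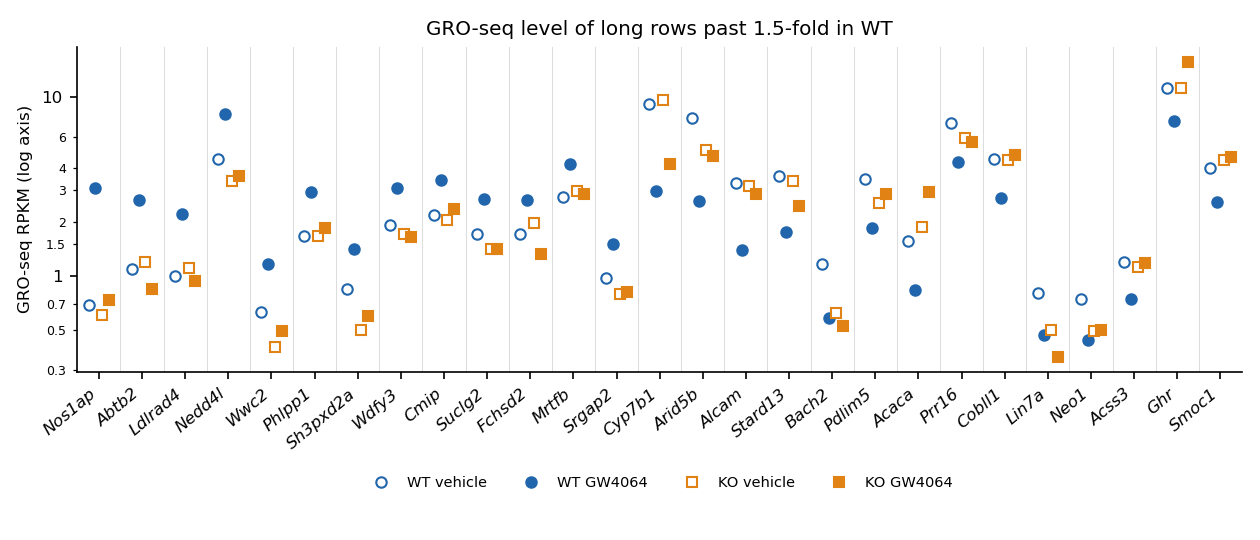
GRO-seq RPKM (log axis) in WT (circles) and FXR KO (squares) livers with vehicle (open) or GW4064 (filled) for 27 of the 29 long rows past 1.5-fold in WT, 13 higher on the left and 14 lower on the right, 1 library per point. Nos1ap goes from 0.686 to 3.11 RPKM in WT and from 0.602 to 0.730 RPKM in FXR KO, while Cyp7b1 is low in both GW4064 libraries.

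In FXR KO livers only 3 long rows were past 1.5-fold upward and 4 downward, or 0.855% and 1.14%, where all rows gave 2.61% and 3.11% and short rows 2.68% and 3.23%. The 3 higher were Carmil1, a regulator of actin capping protein (0.545 and 1.36 RPKM), Mad1l1, a component of the spindle checkpoint (0.825 and 1.39 RPKM), and Acaca. The 4 lower were Cux2, Cyp7b1, Mcc (2.98 and 1.62 RPKM) and Dapk1, a death-associated kinase (2.91 and 1.78 RPKM). The median FXR KO ratio was -0.04 over long rows and -0.03 over short rows, and its interquartile range was 0.22 and 0.35.

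Cux2, a homeobox factor known for higher expression in female than in male liver, had 2.32 and 0.840 RPKM in FXR KO with vehicle and GW4064, and 0.063 and 0.081 RPKM in WT. Without the FXR KO vehicle library it would not have passed the GRO-seq filter, so the choice of rows favoured this decrease in FXR KO. In RNA-seq it had 0.360 and 0.060 RPKM in vehicle and 0.212 and 1.60 RPKM in GW4064. Its RNA-seq log2 fold change of 1.43 was the largest of all long rows, had a standard error of 1.05 and rests on the second GW4064 library. Xist was at 0.028 to 0.153 RPKM and the Y-linked Ddx3y at 2.937 to 6.069 RPKM across the 8 libraries.

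**Figure D4:**
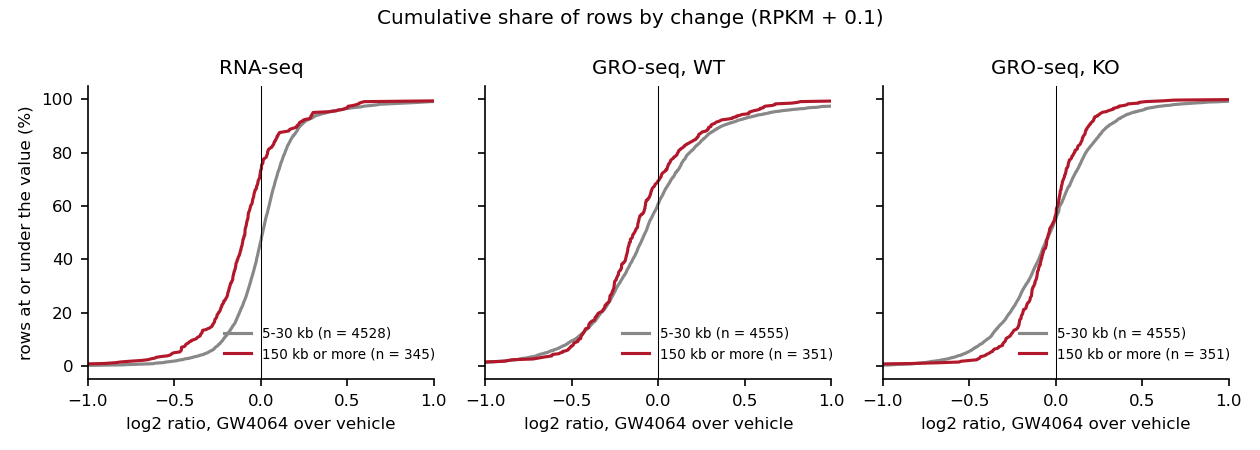
Cumulative share of rows in percent (vertical axis) by log2 ratio of GW4064 over vehicle (horizontal axis, shown from -1 to 1) for long rows (red) and short rows (grey) in RNA-seq and in WT and FXR KO GRO-seq. At 0 the RNA-seq curves stand at 73.3% and 47.0%, the WT curves at 69.2% and 60.7%, and the FXR KO curves at 56.1% and 55.2%.

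The WT GRO-seq and RNA-seq changes, which come from different livers, ran in the same direction in the long rows past 1.5-fold. All 14 higher in WT GRO-seq had an RNA-seq change above 0 and both GW4064 values over both vehicle values, against 26.0% of all rows. All 14 lower rows with an RNA-seq value had a change below 0, and 13 had both GW4064 values under both vehicle values, against 28.1% of all rows. Their median RNA-seq changes were 0.52 and -0.45, and 4 of the higher and 3 of the lower passed the RNA-seq test. Among short rows, 256 of 261 higher and 254 of 287 lower rows had the RNA-seq change of the same sign. Of these, 239 and 188 also had both GW4064 values on that side of both vehicle values. Over the 345 long rows the WT GRO-seq and RNA-seq changes had a Pearson correlation of 0.76 and a Spearman correlation of 0.71, and over 4528 short rows 0.74 and 0.57. With the FXR KO ratio the values were -0.07 and -0.05 for long rows and 0.16 and 0.13 for short rows. These correlations are across genes, which share libraries and are not independent replicates, and short rows hold fewer reads. Of the 7 long rows past 1.5-fold in FXR KO, 3 had an RNA-seq change of the same sign.

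**Figure D5:**
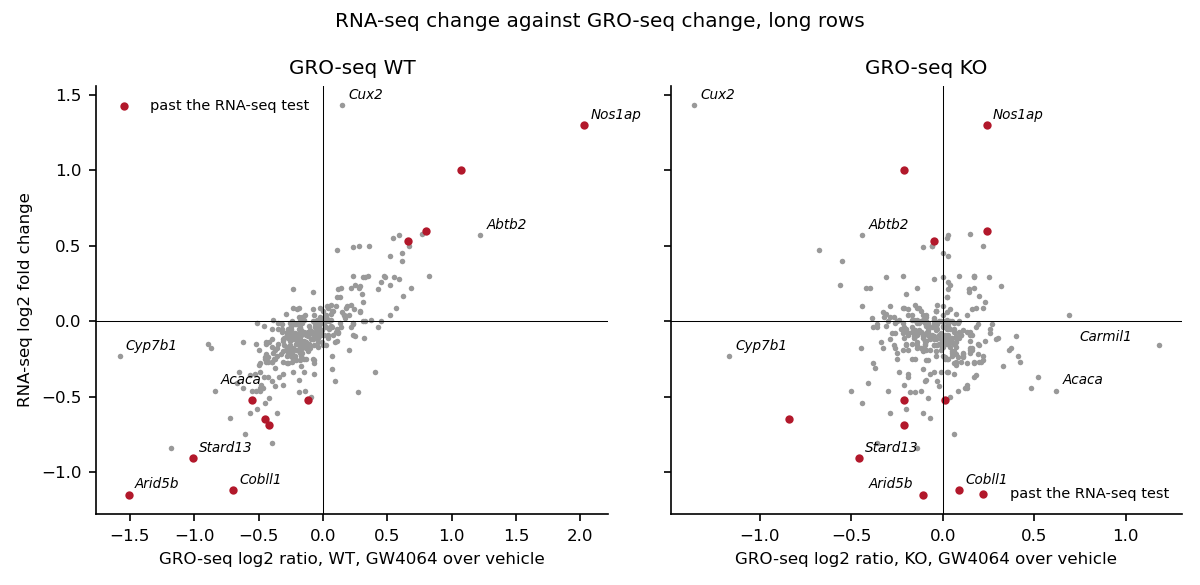
RNA-seq log2 fold change (vertical axis) against the GRO-seq log2 ratio of GW4064 over vehicle (horizontal axis) in WT (left) and FXR KO (right), 1 point for each of 345 long rows, with the 11 past the RNA-seq test in red. Points follow a rising diagonal in WT (Pearson 0.76 across genes) and show no such order in FXR KO (-0.07).

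Between genotypes without treatment, the FXR KO vehicle library was at least 1.5-fold over WT vehicle in 10 long rows and under it in 15, or 2.85% and 4.27%, where all rows gave 5.83% and 5.77%. The 7 hepatocyte markers summed to 668 and 660 RPKM in the WT vehicle and GW4064 GRO-seq libraries and to 1164 and 1141 RPKM in those of FXR KO, and the markers of other blood cells to 10.2 and 11.2 against 6.47 and 7.97 RPKM. Their part in the genotype ratios was not tested. Cux2 passed the GRO-seq filter only through the FXR KO libraries, so the choice of rows favoured its excess there. After it, the largest excess in FXR KO was in Filip1l (4.46 against 1.96 RPKM) and Cmss1 (3.32 against 1.51 RPKM), whose rows overlap and cannot be separated. The largest deficits were in Tead1, the partner of the Hippo effector YAP (0.329 against 0.951 RPKM), and Adamts9, a secreted metalloproteinase (0.459 against 1.25 RPKM). Tead1 then had 0.677 RPKM in WT GW4064 and 0.473 RPKM in FXR KO GW4064. Both FXR KO values of Tead1 were under the 0.5 RPKM limit. It passed the GRO-seq filter through the WT libraries, so the choice of rows favoured its deficit in FXR KO.

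The long rows were also grouped by function. As a background for these lists, the RNA-seq test called 3.28% of all rows and 3.19% of long rows. Of long rows, 73.3% had an RNA-seq change below 0 and 69.2% a WT GRO-seq ratio below 0. In WT GRO-seq 3.99% of long rows were past 1.5-fold upward and 4.27% downward, and 6.10% and 6.83% of all rows. In lists of this size, 0 or 1 call is near that background. Of 21 nuclear receptors and liver transcription factors, 1 fell in RNA-seq (Arid5b), 20 did not pass the test, and 18 had a change below 0, with a median of -0.15 beside -0.09 for all long rows. Zbtb16, the zinc finger repressor PLZF, had 9.62 and 8.88 RPKM in vehicle and 6.39 and 5.95 RPKM in GW4064 (log2 change -0.58, adjusted p = 0.0510, limma), with GRO-seq values of 13.8 and 9.67 RPKM in WT and 14.0 and 12.2 RPKM in FXR KO. Zfhx3 had a log2 change of -0.61 (adjusted p = 0.0567). Their median WT GRO-seq ratio was -0.28 and 17 of 21 were below 0.

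None of 13 nuclear receptor coregulators and chromatin factors passed the RNA-seq test, with a median of -0.13, and none was past 1.5-fold in either genotype. Chd7, a chromatin remodeller, had 1.99 and 1.94 RPKM in vehicle and 1.68 and 1.73 RPKM in GW4064 (log2 change -0.20, adjusted p = 0.159, limma). Kmt2c and Med13l had -0.17 and -0.16. None of 8 hormone and growth factor receptors and insulin signalling genes passed, all 8 had a change below 0, and the median was -0.10. Prkag2, a regulatory subunit of AMP-activated kinase, had 2.88 and 2.42 RPKM in vehicle and 2.12 and 1.59 RPKM in GW4064 (adjusted p = 0.228).

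Among 10 genes of lipid, bile acid and energy metabolism, 1 rose (Ldlrad4), 1 fell (Cobll1) and 8 did not pass the RNA-seq test, and 3 were past 1.5-fold downward in WT GRO-seq (Acaca, Cobll1 and Acss3, a mitochondrial acyl-CoA synthetase). The list does not hold Cyp7b1, described above, which was also past 1.5-fold downward. The 2 called genes are not enzymes of these pathways. Of 23 kinases, phosphodiesterases and GTPase regulators none passed, and the median of -0.19 was under that of all long rows. Chn2, a Rac GTPase-activating protein, had -0.61 (adjusted p = 0.109, limma), Dock4 had -0.37, and Srgap2 had 0.57 (adjusted p = 0.0555). Of 19 adhesion, polarity and cytoskeleton genes none passed, and the median was -0.07. Sorbs2 had 2.95 and 3.52 RPKM in vehicle and 1.89 and 1.70 RPKM in GW4064 (log2 change -0.81, adjusted p = 0.0570), Daam1, a formin, had 0.55 (adjusted p = 0.0613) and Cadm1 had 0.29.

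Of 29 trafficking, ubiquitin and scaffold genes, Wdfy3 rose and 28 did not pass the RNA-seq test, with a median of -0.09. In WT GRO-seq 3 of them, Nedd4l and Wdfy3 included, were past 1.5-fold upward and none downward. Akap13 had a log2 change of -0.42 (adjusted p = 0.0714, limma) and Herc1 had 0.30. None of 5 RNA-binding proteins passed, with a median of -0.27. Rbms1 had -0.51, Rbfox2, a splicing regulator, had -0.46, and Fndc3a had -0.27, with adjusted p-values of 0.0523, 0.0632 and 0.102. None of 9 genes at common fragile sites passed, and their changes ran from -0.14 to 0.04. Dmd, the dystrophin gene, had -0.14, Usp32 -0.14 and Wwox -0.11. None of the 4 long genes of other liver cell types (Ldb2, Efna5, Tshz2 and Stab2) passed, with changes from -0.12 to 0.16.

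At the edges of the rule, Dock9 and Naaladl2 were just inside the GRO-seq limit with means of 0.503 and 0.504 RPKM, and Rngtt and Tbcd were just outside it with 0.498 and 0.496 RPKM. Tle4 (150.11 kb) and Adam23 (150.21 kb) were just inside the length limit, and Cmah (149.88 kb) and Ppfibp2 (149.84 kb) just outside it. With a length limit of 100 or 200 kb in place of 150 kb, the median RNA-seq change was -0.092 both times.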

How the data were processed

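All 8 libraries of the series' gene table were used, 4 of RNA-seq and 4 of GRO-seq. The authors mapped reads to mm10 with STAR (2.7.3a in the submitters' processing notes) and deposited RPKM values quantified with HOMER, without pooling libraries. Kits are given differently in the methods (Kapa HyperPrep) and the labels (TruSeq Stranded), both after rRNA removal. Row length and copy number of each gene are other columns of the deposited table, and length equals end minus start in every long row. RPKM multiplied by row length and a fitted library total gave whole reads within 0.15, which supplied the totals and counting intervals. Promoters on chromosome 18 were not searched.

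RNA-seq rows with a mean of at least 0.5 RPKM were fitted as log2(RPKM + 0.1) with treatment as the only term, using limma 3.58.1 in R 4.3.3 (eBayes trend=TRUE, robust=FALSE), with Benjamini-Hochberg adjustment over 11408 rows and a threshold of 0.05. The fit was also run on simulated counts with little spread beyond counting error, which does not check it against the spread between livers. Fold changes on this scale understate changes of low rows. GRO-seq ratios used the same added value, with no test. Long rows were matched to GENCODE M21 transcripts for exon structure. Alternatives covered the added value, filters, scaling, eBayes options, the replicate number as a block, single libraries left out, limma-voom on rebuilt reads, the thresholds and the membership rule. The shares of rows whose RNA-seq groups do not overlap were recomputed under settings chosen after seeing the data.

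Members and gene lists were chosen with earlier results of these data known. Named genes were the 12 largest and 12 smallest RNA-seq changes past the test with groups that did not overlap, the 3 smallest RNA-seq p-values of each gene list, and the 8 largest and smallest WT and 4 largest and smallest FXR KO GRO-seq ratios with at least 200 reads. The 5 longest, the 5 highest by GRO-seq mean and the 2 on either side of each limit were added. Predicted genes and RIKEN clones were left out of the ranked choices. Other genes past 1.5-fold and in the genotype comparison were named after their values were seen. Some genes that these rules select are not reported here by name, and all counts include them. Tables and figures were made in Python 3.11.15 (pandas 2.3.3, numpy 2.4.6), counting intervals with scipy 1.17.1 and plots with matplotlib 3.10.9.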

Additional observations from a re-analysis of the deposited data

Results flagged for a closer look

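Acaca was singled out because its GRO-seq ratio of GW4064 over vehicle was past 1.5-fold in opposite directions in the 2 genotypes, the only long row of which this was true. The log2 ratio was -0.84 in WT and 0.62 in FXR KO, with 1 library per group, and the difference between genotypes was not tested.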

How the results depend on the processing

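The median RNA-seq change of long rows stayed below 0 under every alternative run. It was -0.053 with 1 RPKM added and from -0.113 to -0.080 when 1 library was left out. That of short rows turned to -0.007 with quantile normalization, and ran from -0.004 (without the second GW4064 library) to 0.026 when 1 library was left out. The share of long rows called in RNA-seq was 3.19%, and became 7.58% with a filter at a mean of 1 RPKM, 5.51% with robust=TRUE, 12.8% with limma-voom, 5.37% from 100 kb upward, 4.83% for rows with a GRO-seq mean of at least 1 RPKM, 0.570% with no filter, and 0% at adjusted p under 0.01. For short rows 2.85% became 3.73% with the 1 RPKM filter, 3.80% with robust=TRUE, 3.32% at a GRO-seq mean of at least 1 RPKM, 0.615% with no filter, 7.82% with limma-voom and 0% at adjusted p under 0.01. With 1 library left out the shares were 0% for long rows and 0% to 0.0442% for short rows, and 13.0% to 21.4% of long rows had an unadjusted p under 0.05, against 13.9% to 17.2% of all rows. Limma over the remaining 3 libraries assumes that a lone library varies like the other group, and the adjusted p of the 11 called rows was then 0.0747 to 0.225.

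With the replicate number as a block, 0% of long and 0% of short rows passed, and 22.6% of long rows had an unadjusted p under 0.05, against 20.4% of all rows. The labels do not say that the number marks a shared batch, and deviations of same-numbered libraries had a correlation of -0.022 across 11408 rows, so the numbers were not taken to pair the samples.

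In WT GRO-seq the share of long rows past the fold limit went from 8.26% to 3.13% with 1 RPKM added, 2.28% at 2-fold and 5.05% from 200 kb upward, and that of short rows from 12.1% to 5.75% with 1 RPKM added and 3.86% at 2-fold. In FXR KO the long rows went from 1.99% to 1.14% with 1 RPKM added and 0.855% at 2-fold, and the short rows from 5.91% to 1.58% and 0.988%. When ratios were centred on the median of all rows, the WT median of long rows was -0.043, that of short rows 0.018, and the short-row median of FXR KO over WT vehicle 0.026. Of 959 pairs of a named gene and an RNA-seq setting, 856 kept their side of the threshold, 70 lost a call, 33 gained one and 0 called values changed sign. A gene that was not called at first keeps its side by staying uncalled, so 856 does not measure how stable the calls were. Every lost call fell on the 11 rows called at first, of which 2 stayed called with no filter and 0 with the replicate block. Where RNA-seq groups do not overlap, the sign could not change when a library was left out. The shares of rows with groups that did not overlap were recomputed under the settings chosen after seeing the data. Of rows of 150 kb or more, 43.8% to 49.0% were lower and 15.7% to 16.8% higher. From 100 kb upward the shares were 54.5% and 16.9%, and from 200 kb upward 49.5% and 12.1%. Short rows gave 24.4% to 28.4% lower and 25.4% to 30.3% higher. With quantile normalization more short rows were lower (28.4%) than higher (25.4%). GRO-seq has 1 library per group, so no spread between livers is known.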
